A study of Mus musculus with 76 samples.

Results

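The regions described here are stretches of mouse chromatin marked by acetylation of lysine 27 of histone H3 (H3K27ac) in the late embryonic diencephalon, away from gene starts. The H3K27ac peaks of the 5 wild type libraries, 2 from E11.5 and 3 from E17.5 (E, embryonic day), were joined into 1 region wherever 1 bp or more was shared, which gave 98868 regions on chromosomes with annotated genes. A region was kept if it lay over 5 kb from the start of every protein-coding gene (GENCODE, mm39) and held a peak in all 3 E17.5 lists and in neither E11.5 list. This left 22150 E17.5-only regions, which were 27.2% of the 81328 distal regions and 22.4% of all merged regions. H3K27ac peaks of these 5 lists therefore chose the members, and their presence at E17.5 and absence at E11.5 is a property of the choice. For comparison, 7942 distal regions were called in all 5 lists (both-stage regions) and 3146 in both E11.5 lists and in no E17.5 list (E11.5-only regions).

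The study dissected diencephalon from C57BL/6J mouse embryos of 2 genotypes, wild type and hs754-humanized. In the hs754-humanized mice, which were homozygous, a human enhancer sequence named hs754 replaced its mouse counterpart on chromosome 13. The line was made by editing C57BL/6J embryos and was backcrossed to the same strain. Each library pooled 6 embryos at E11.5 or 3 embryos at E17.5 from 1 litter, with no further treatment. Chromatin immunoprecipitation and sequencing (ChIP-seq) was done for H3K27ac, H3K4me3, H3K27me3 and, at E17.5, CTCF, each genotype giving 2 libraries at the earlier stage and 3 at the later. Polyadenylated RNA was sequenced from 4 libraries per genotype and stage.

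H3K27ac marks active promoters and enhancers, the DNA elements that raise transcription of genes that may lie far away. H3K4me3 marks promoters, while H3K27me3 is placed by the Polycomb machinery on silent genes and on elements that are held inactive. CTCF is a zinc finger protein that binds a long sequence motif and anchors chromatin loops. The diencephalon forms the thalamus, hypothalamus and neighbouring nuclei. At E11.5 it is largely made of dividing neural progenitors, and by E17.5 most of its neurons have been born and the first glial cells have appeared.

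The sequence under the summit of the strongest regions is shown first, since these stand for the chromatin that the set was chosen on. Each is 150 bases of the plus strand of mm39 around the highest H3K27ac summit, named by the nearest protein-coding gene, with TTGGCA on either strand in capitals. That hexamer is the core recognised by nuclear factor I proteins, whose genes Nfia, Nfib and Nfix are described with their RNA further on.
Wnt7b, chr15:85537865-85538014: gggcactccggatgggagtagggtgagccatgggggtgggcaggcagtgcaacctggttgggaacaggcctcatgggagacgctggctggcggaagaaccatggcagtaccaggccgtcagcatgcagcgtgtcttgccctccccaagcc
Prkag2, chr5:25190991-25191140: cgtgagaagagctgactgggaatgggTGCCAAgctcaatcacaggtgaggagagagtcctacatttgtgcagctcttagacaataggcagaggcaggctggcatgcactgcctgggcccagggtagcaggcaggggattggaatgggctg
Ahi1, chr10:20820409-20820558: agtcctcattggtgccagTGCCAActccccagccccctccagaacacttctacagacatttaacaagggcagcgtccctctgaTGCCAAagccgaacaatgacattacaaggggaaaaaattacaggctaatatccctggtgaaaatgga
The region near Ahi1 held 2 copies of the hexamer in this window, the region near Prkag2 held 1, and the region near Wnt7b held none. The other strongest regions searched, near Phf5a, Irf2bpl, Calcoco1, Klrb1c, Scn3b, Rps24 and Neurl1b, held none either and are not shown. Among the strongest regions, only the windows near Ahi1 and Prkag2 held a match, so the windows shown overstate how often it occurred. Over 300 bases at the summit, 17.3% of E17.5-only regions held the hexamer on either strand, against 16.4% of all distal regions, 13.9% of both-stage regions and 15.4% of E11.5-only regions.
Regions that also bound CTCF are shown by 60 bases, plus strand, around the motif match nearest to the CTCF summit of wild type replicate 1. Capitals mark CCANNAGNNGGC, the core of the CTCF motif, which ran along the minus strand near Fbxw11 and Msi2 and along the plus strand near Tmem242. The match lay outside the H3K27ac region itself near Fbxw11 and Tmem242, in the part of the CTCF peak that reached beyond it.
Fbxw11, chr11:32538534-32538593: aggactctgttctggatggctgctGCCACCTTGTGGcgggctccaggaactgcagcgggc
Tmem242, chr17:5479874-5479933: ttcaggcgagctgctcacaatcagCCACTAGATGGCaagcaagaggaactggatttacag
Msi2, chr11:88619482-88619541: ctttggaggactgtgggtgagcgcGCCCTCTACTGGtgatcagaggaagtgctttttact
Regions that lay wholly under H3K27me3 at E11.5 are shown by 150 bases, plus strand, around the H3K27ac summit, with every CpG dinucleotide in capitals. The window near Dcp1a held 22 CpG dinucleotides and the window near Parp8 held 3, so the members under H3K27me3 were not all rich in CpG.
Dcp1a, chr14:30075703-30075852: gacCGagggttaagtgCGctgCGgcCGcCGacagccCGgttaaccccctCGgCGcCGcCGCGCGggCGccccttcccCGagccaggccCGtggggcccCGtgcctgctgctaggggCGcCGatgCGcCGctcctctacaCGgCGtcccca
Parp8, chr13:116844650-116844799: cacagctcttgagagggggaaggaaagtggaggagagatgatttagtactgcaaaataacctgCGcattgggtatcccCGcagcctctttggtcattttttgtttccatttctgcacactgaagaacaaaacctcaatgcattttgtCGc

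Peak lists were longer at E17.5, which bears on the size of the set. The wild type H3K27ac lists of E11.5 held 36150 and 32418 peaks, while those of E17.5 held 62720, 74802 and 77419. Per the study's methods, more chromatin went into the later H3K27ac precipitations. With the 32418 peaks of highest significance taken from each list, 7372 distal regions were E17.5-only, 4951 were E11.5-only and 5525 belonged to both stages. RNA libraries held 16414369 to 24272569 counts on genes. The RNA library of wild type E17.5 replicate 1 stood apart from the other 3 of its group, and counts of called genes without it, a setting added after seeing the data, are given where they bear on a comparison.

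The E17.5-only regions lay mostly in introns or between genes, at shares near those of all distal regions. Their median length was 1106 bp (quartiles 749 and 1617). It was 559 bp for all distal regions, 2082 bp for both-stage regions and 649 bp for E11.5-only regions. The centre lay in an intron of a protein-coding gene in 11322 regions (51.1%), between genes in 5244 (23.7%), in a non-coding gene in 4430 (20%) and in an exon of a protein-coding gene in 1154 (5.21%). The median distance from the centre to the nearest protein-coding start was 72.4 kb, and 39.9% of the regions lay over 100 kb away. All distal regions were close to this, at 69.0 kb and 38.8%, while the median was 54.1 kb for both-stage regions and 52.5 kb for E11.5-only regions. Both-stage and E11.5-only regions had a similar spread over introns (48.8% and 48.6%). Of all distal regions, 52.2% had the centre in an intron of a protein-coding gene and 23.2% between genes. The regions lay on 20 chromosomes, with 295 on X, and 44.5% of them had another within 10 kb.

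H3K27ac enrichment over input, as the peak caller gave it, was modest at most members. The median of the highest peak in a region was 4.67, 5.09 and 5.05-fold in the 3 wild type E17.5 lists, against 8.3, 8.86 and 8.72-fold for both-stage regions. At the distance threshold, the nearest member lay 5004 bp from a start (chr15:32171974-32172431, enrichment 4.42, 2.49 and 3.47-fold) and the nearest region left out lay at 4997 bp (chr13:41645835-41646261, 3.51, 2.7 and 3.5-fold). A further 11422 distal regions missed the rule by 1 E17.5 list, and 3184 were called in all 3 E17.5 lists but also in 1 E11.5 list. Membership therefore separates peak calls, and many regions just outside it differ by a single list.

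The strongest member by its lowest value in the 3 lists was chr15:85536010-85542750, a region of 6741 bp that lay 72.7 kb upstream of Wnt7b, which encodes a secreted Wnt ligand. Its enrichment was 49.8, 53.9 and 57.4-fold, and it was called in all 3 humanized E17.5 lists and in neither humanized E11.5 list. The region held starts of non-coding genes, among them Lncppara, whose RNA was 0, 0, 0.052 and 0.0409 CPM (counts divided by the normalised size of the library, as edgeR gives them) at E11.5 and 1.93, 0.598, 1.32 and 0.553 CPM at E17.5. The Lncppara groups did not overlap, but the E11.5 level rested on too few reads for a fold change. Wnt7b RNA itself was lower at E17.5 (log2 change -2.31, SE 0.39, edgeR adjusted p = 0.000512).

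Of the 10 genes nearest to the 10 strongest members, 5 were called higher at E17.5 (background 32.3%) and 3 lower (background 25.7%), namely Wnt7b, Phf5a (log2 change -1.21, edgeR adjusted p = 0.000335) and Rps24 (log2 change -1.04, edgeR adjusted p = 0.00709), while Calcoco1 was not called and Klrb1c was not tested. The region chr5:25188385-25192525, within an intron of Prkag2 and 116.0 kb from its start, had 37.2, 43.9 and 64.6-fold enrichment. It held the start of the non-coding gene 1500035N22Rik, whose RNA was 0.255, 0.0525, 0.104 and 0.0818 CPM at E11.5 and 11.8, 7.07, 8.78 and 9.28 CPM at E17.5. The 1500035N22Rik groups were far apart, and the gene was called higher (log2 change 6.17, SE 0.39, edgeR adjusted p = 9.03e-07), as was Prkag2, a subunit of the energy sensor AMP-activated kinase (log2 change 1.12, SE 0.15, adjusted p = 9.79e-05).
The region chr10:20818936-20822138 lay 7.86 kb upstream of Ahi1, a gene of primary cilia, with 40.9, 35.6 and 41.0-fold enrichment. Ahi1 RNA was higher at E17.5 (log2 change 2.67, SE 0.19, edgeR adjusted p = 1.52e-06). The region chr9:40255892-40259100 was nearest to Scn3b, a sodium channel subunit, with 35.0, 39.7 and 35.7-fold enrichment, and held a start of Gramd1b transcripts. Gramd1b, which encodes a cholesterol transfer protein, measured 19, 17.6, 20.5 and 20.7 CPM at E11.5 and 138.0, 143.0, 115.0 and 124.0 CPM at E17.5. Gramd1b was called higher (log2 change 2.74, SE 0.17, edgeR adjusted p = 7.78e-07), and so was Scn3b (log2 change 3.27, SE 0.18, adjusted p = 4.77e-07). Of the 10 strongest members, 8 were in no or 1 humanized E11.5 list, and the regions near Phf5a and Klrb1c were in both.

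The humanized embryos gave H3K27ac measurements that took no part in choosing the regions. Chromosome 13 was left out of this comparison, since coordinates downstream of hs754 are shifted in the humanized files, which left 21066 members. Of these, 88.1%, 88.4% and 61.0% held a peak in the 3 humanized E17.5 lists (79.2% ± 15.8, SD over 3 lists), against 5.11% and 5.65% in the 2 humanized E11.5 lists (5.38% ± 0.379). The lowest value came from the shortest list, humanized E17.5 replicate 3, which held 47132 peaks where the others held 63947 and 65181. In all, 20215 members (96.0%) were called in at least 1 humanized E17.5 list and 11978 (56.9%) in all 3, or 81.2% in both of the other lists without replicate 3. At E11.5, 19158 members (90.9%) were in neither humanized list and 359 (1.7%) were in both. The share in all humanized lists of the matching stage was 86.4% for both-stage regions at E17.5 and 64.7% for E11.5-only regions at E11.5.

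H3K4me3, the promoter mark, was present at a minority of members and more often at E17.5. It was found in 5.88% and 5.78% of the regions in the E11.5 lists (5.83% ± 0.067, SD, n = 2 lists) and in 9.93%, 10.4% and 9.1% in the E17.5 lists (9.81% ± 0.652, n = 3), although the H3K4me3 lists of both stages were of similar length (23471 to 25080 peaks). Both-stage regions carried it in 43.6% ± 0.926 of cases in the E11.5 lists and 39.8% ± 1.29 in the E17.5 lists, and E11.5-only regions at 8.69% ± 0.922 and 2.86% ± 0.416. In 1-kb windows at the summit, 5.26% of members had H3K4me3 in all E11.5 lists and 8.16% in all E17.5 lists. The shares over all distal regions were 7.45% and 8.02%. A transcript start of a protein-coding gene, coding or not, other than the annotated gene start lay in 847 members (3.82%). The share was 3.66% of all distal regions and 16.8% of both-stage regions. Members with H3K4me3 in all 3 E17.5 lists numbered 1810 (8.17%), and 19% of these held such a start.

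A CpG-rich stretch was taken as any 200-bp window with at least 50% GC and an observed to expected CpG ratio of at least 0.6 within 1 kb at the summit. It lay in 3726 members (16.8%), near the 15.6% of all distal regions, in 35.5% of both-stage regions and in 10% of E11.5-only regions. Among members with H3K4me3 in all 3 E17.5 lists the share was 64.3%. Short motifs searched on both strands in 300 bases at the summit were found at nearly the share of all distal regions. The activator protein motif TGANTCA was in 8.93% of members and 8.73% of distal regions, the SOX motif AACAAT in 13.3% and 13.8%, and the homeodomain motif TAATTA in 6.98% and 6.88%. CTANNNNTAG, bound by MEF2 factors, was in 4.07% and 4.09%, and CTTTGAT, bound by TCF and LEF factors, in 4.87% and 4.85%. E-boxes CAGCTG and CAGATG were in 20.9% and 24.5% of members, against 20.7% and 24.9% of distal regions. These matches describe letters in the window and do not show binding.

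CTCF was present at about 1 member in 8. It was called in 16.8%, 13.8% and 14.6% of E17.5-only regions in the 3 wild type lists (15.1% ± 1.58, SD), and in all 3 lists in 2661 regions (12%). The humanized lists, which were shorter, gave 13.2%, 12.5% and 13.3%. Both-stage regions had CTCF in 34.1% ± 3.51 per list and E11.5-only regions in 6.07% ± 0.932. The members lay between the other classes in every wild type list, and the order was the same in a fixed 1-kb window at the summit, chosen after seeing the data because the classes differ in length (10.9%, 21.2% and 5.4% in all 3 lists). In that window the share over all distal regions was 9.84%, near that of the members. CTCF was not measured at E11.5 in the data used here.

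**Figure D1:**
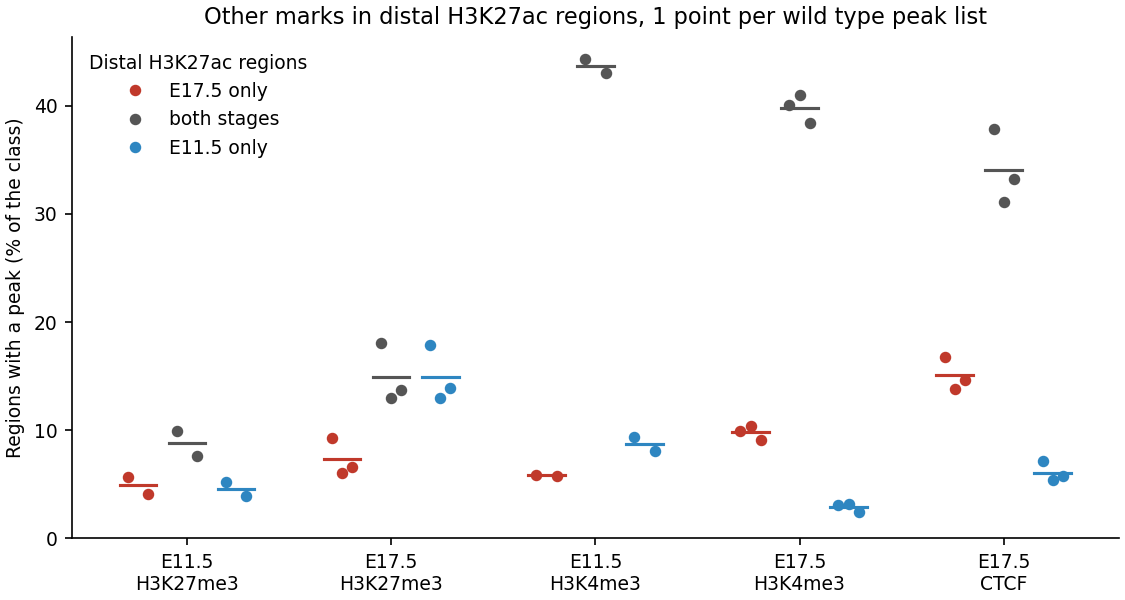
Share of distal H3K27ac regions (%, y axis) that overlap a peak of each wild type list of H3K27me3, H3K4me3 and CTCF, with 1 point per list, a bar at the mean, and colours for E17.5-only, both-stage and E11.5-only regions. E17.5-only regions lie below both-stage regions for every mark, at 15.1% against 34.1% for CTCF.

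CTCF summits tended to sit beside the H3K27ac summit. In the 2661 members with CTCF in all 3 lists, the CTCF summit of replicate 1 lay a median of 309 bp from the H3K27ac summit, and within 500 bp in 72.1% of them. The 200-bp bins just beyond 200 bp on either side held 509 and 479 regions, and those next to the H3K27ac summit held 380 and 310. The motif core CCANNAGNNGGC was found in the 150 bases centred on the CTCF summit in 699 of these members (26.3%), against 27.3% of all CTCF peaks of that list and 18.9% of CTCF-bound both-stage regions. Median CTCF enrichment in members with CTCF in all 3 lists was 17.2, 12.6 and 14.6-fold, against 12.8, 9.25 and 11.1-fold for both-stage regions chosen in the same way.

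**Figure D2:**
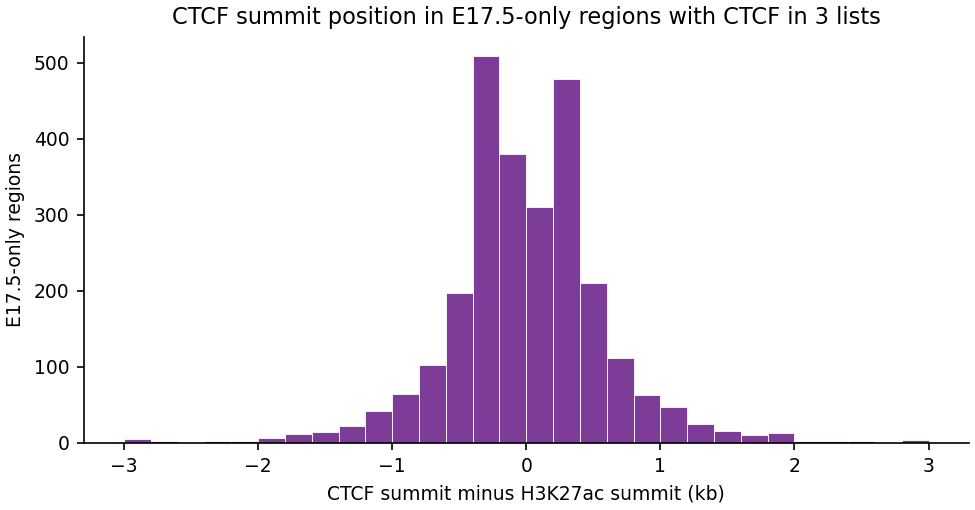
Distance from the H3K27ac summit to the CTCF summit of wild type replicate 1 (kb, x axis, 200-bp bins) against the number of E17.5-only regions (y axis) among the 2661 with CTCF in all 3 lists, with distances beyond 3 kb placed in the end bins. The highest bins, 509 and 479 regions, lie between 200 and 400 bp to either side of the H3K27ac summit.

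Members with very strong CTCF could carry H3K27ac far below that of the strongest members. The region chr11:32537933-32538374 in an intron of Stk10 had CTCF at 65.3, 68.5 and 65.1-fold and H3K27ac at 3.09, 4.39 and 4.2-fold. The region chr17:5479936-5480409 in an intron of Tmem242 had CTCF at 76.8, 61.5 and 64.4-fold and H3K27ac at 5.61, 5.75 and 7.57-fold. The genes nearest to these regions, Fbxw11 (log2 change -0.01, edgeR adjusted p = 0.979) and Tmem242 (log2 change -0.46, edgeR adjusted p = 0.139), were not called.

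Few E17.5-only regions lay under H3K27me3 at E11.5, at a share near that of all distal regions. The mark was called in 5.69% and 4.12% of them in the 2 wild type E11.5 lists (4.91% ± 1.11, SD), and in both lists in 879 regions (3.97%). No H3K27me3 list of either stage covered 19556 regions (88.3%). The share in both E11.5 lists was 7.21% for both-stage regions and 3.66% for E11.5-only regions. In 1-kb windows at the summit it was 3.7% for E17.5-only, 5.12% for both-stage, 3.69% for E11.5-only and 3.26% for all distal regions. At E17.5 the mark was called in 9.26%, 6.04% and 6.61% of E17.5-only regions, with lists of 43700, 27452 and 33223 peaks where E11.5 had 19166 and 13850. In E11.5-only regions, which had lost H3K27ac by the rule, the E17.5 lists gave 17.9%, 13% and 13.9%. List length moves with stage here, so a change of share between stages cannot be told apart from it.

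Most members under H3K27me3 at E11.5 were still in the H3K27me3 lists at E17.5. Of the 879 regions in both E11.5 lists, 588 were in all 3 E17.5 lists as well and 113 were in none. In the humanized embryos, whose E17.5 lists were shorter (19193 to 31592 peaks), 571 of 1063 such regions off chromosome 13 were in all 3 E17.5 lists and 290 were in none. The tissue was sequenced in bulk, so H3K27ac and H3K27me3 called at one place may come from different cells. The 879 regions held a CpG-rich stretch in 61.1% of cases and H3K4me3 in all E17.5 lists in 56.0%, against 13.6% and 5.28% of the 19556 regions without H3K27me3. CTCF was in all 3 lists at 30.4% of the 879 and at 10.9% of the 19556.

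A transcript start of a protein-coding gene lay in 3 of the 8 members most fully under H3K27me3 at E11.5, and in 20.9% of the 879. The 3 are described here, and the others were 2 regions near Wnt7b and those near Marveld3, Parp8 and Dcp1a. The region chr2:164808703-164813671 in Slc12a5, which encodes the neuronal chloride exporter KCC2, was wholly covered in both E11.5 lists and held a transcript start. The centre of the region lay 8.46 kb downstream of the gene start. Its H3K27ac enrichment at E17.5 was 26.7, 23.4 and 37.0-fold. Slc12a5 RNA was 13.4, 12.8, 10.9 and 11.3 CPM at E11.5 and 286.0, 194.0, 201.0 and 226.0 CPM at E17.5, with no overlap (log2 change 4.23, SE 0.2, edgeR adjusted p = 3.12e-07).
The region chr4:119670858-119672886 in Hivep3, a zinc finger transcription factor, was covered at E11.5 and in 1 of 3 lists at E17.5. Hivep3 measured 3.27, 2.68, 3.07 and 2.13 CPM at E11.5 and 43.7, 45.0, 31.7 and 34.8 CPM at E17.5, again with no overlap (log2 change 3.8, SE 0.23, edgeR adjusted p = 6.69e-07).
The region chr11:11974728-11977759 in Grb10, an imprinted gene for a signalling adaptor, held a transcript start and H3K27ac of 27.4, 23.9 and 32.4-fold. Grb10 RNA moved the other way, from 1260.0, 1490.0, 1220.0 and 1360.0 CPM to 283.0, 202.0, 183.0 and 195.0 CPM (log2 change -2.63, SE 0.19, edgeR adjusted p = 2.08e-06). Counts were made per gene, so the transcripts that start in these regions were not measured apart from the rest of the gene.

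Each region was next assigned to the protein-coding gene with the nearest start, and RNA at E17.5 was compared with E11.5 in the wild type embryos. In these bulk samples, a change in the number of cells of a type and a change in RNA per cell cannot be told apart. The 22150 regions were nearest to 6747 of 21770 protein-coding genes (31%), of which 5614 passed the filter on low counts. Of these, 2315 (41.2%) were higher at E17.5 and 1261 (22.5%) were lower, where the background over all 14353 protein-coding genes tested was 32.3% higher and 25.7% lower (edgeR quasi-likelihood, adjusted p under 0.05). The median log2 change was 0.33 (quartiles -0.51 and 1.59) against 0.07 over all genes. Without wild type E17.5 replicate 1 the shares were 46.8% higher and 31.3% lower, against 38.4% and 37.2% of all protein-coding genes.

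The humanized embryos, 4 libraries per stage, gave the same order. Of 5615 nearest genes tested, 48.4% were higher and 33.5% lower at E17.5, where the background over all protein-coding genes was 39.8% higher and 40.6% lower. No gene of 20234 passed a test of whether the stage change differed between genotypes (edgeR, adjusted p under 0.05), while 1610 had an unadjusted p under 0.05. Genes nearest to both-stage regions were higher in 35.7% and lower in 25.7% of wild type comparisons. Genes nearest to E11.5-only regions were higher in 29.8% and lower in 33.6%, or 35.1% and 43.2% without E17.5 replicate 1, where the both-stage shares were 41% and 36.6%. These sets of genes share members, and the differences between them were not tested.

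Assignment and gene spacing bear on this pattern. When every protein-coding gene with a start within 100 kb of a region was taken, 32.2% of 9878 genes were higher and 26.1% lower, close to the background. The share of higher genes grew with the number of E17.5-only regions, from 26.5% of genes with none to 35.0% with 1 region, 42.6% with 3 to 4, 57.5% with 10 to 19 and 60.3% of 63 genes with 20 or more. The share of lower genes fell from 27.8% to 11.1% over the same bins. Genes with more regions also stood in longer stretches, a stretch being the DNA closer to the gene's start than to any other protein-coding start. The median stretch was 32.2 kb for genes with none and 487.0 kb for genes with 10 or more. Among genes with a stretch of at least 200 kb, 47.2% of those with no E17.5-only region were higher, against 44.2% with 1 to 2 regions, 44.0% with 3 to 4, 50.7% with 5 to 9 and 57.4% with 10 or more. Among genes with a stretch under 50 kb, 22.6% of those with none and 33.8% of those with 1 or more were higher, and the shares were 30.7% and 34.5% at 50 to 100 kb, 36.4% and 42.3% at 100 to 200 kb, and 47.2% and 48.3% at 200 kb or more. In the humanized libraries the order of the shares held under 50 kb (27.2% with none, 35.1% with 1 or more) and turned at 50 to 100 kb (44.9% and 39.1%), 100 to 200 kb (51.6% and 50.1%) and 200 kb or more (59.9% and 59.3%). Without wild type E17.5 replicate 1 it also turned at 50 to 100 kb (41.4% and 39.1%) and at 200 kb or more (58.4% and 55.7%). At like spacing above 50 kb, then, the shares of genes with and without a region had no constant order.

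**Figure D3:**
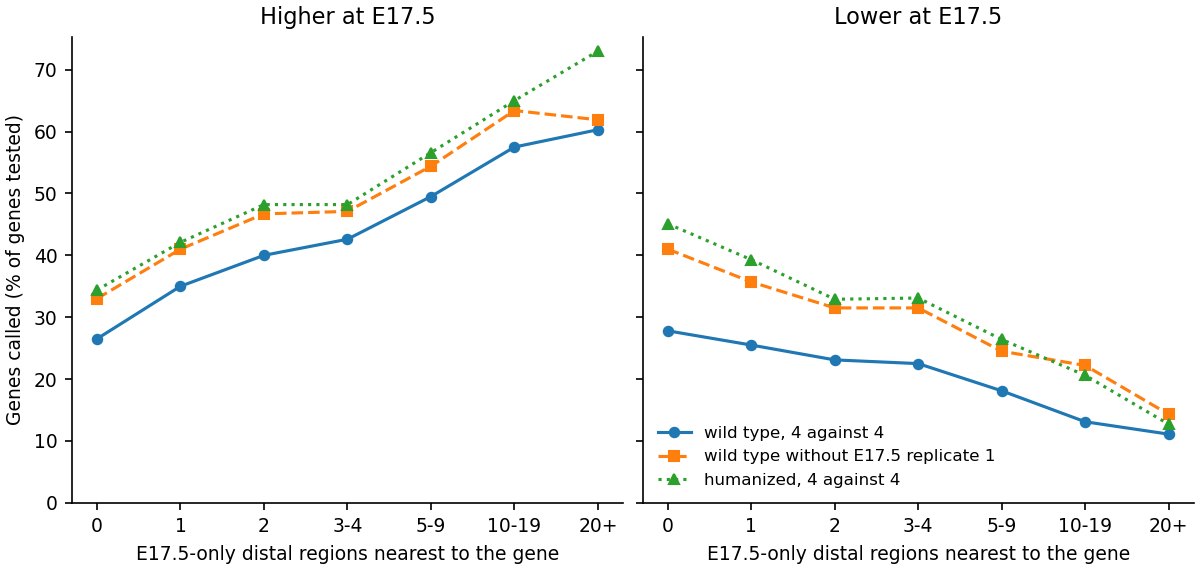
Percent of tested protein-coding genes called higher (left) or lower (right) at E17.5 by edgeR, against the number of E17.5-only regions nearest to the gene, for wild type (4 against 4 libraries), wild type without E17.5 replicate 1, and humanized libraries (4 against 4). The wild type line for higher genes runs from 26.5% to 60.3%. The stretch closer to the gene's start than to any other protein-coding start lengthens along the same axis.

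Of the 6747 genes, 420 were nearest to 10 or more regions and together took 6110 of them (27.6%). The gene with the most was Ntm, which encodes the cell adhesion molecule neurotrimin (chr9:28906045-29874437, minus strand), with 55 E17.5-only regions, 42 of them in its introns, 3 both-stage regions and no E11.5-only region. Ntm RNA was 33.4, 16.9, 31.2 and 21.9 CPM at E11.5 and 428.0, 445.0, 357.0 and 382.0 CPM at E17.5. All E17.5 libraries lay above all E11.5 libraries (log2 change 3.96, SE 0.25, edgeR adjusted p = 9.44e-07).
Rbfox1, a regulator of neuronal splicing, had 43 regions, 41 of them in its introns. Its RNA was 8.07, 5.31, 14.3 and 8.79 CPM at E11.5 and 137.0, 172.0, 146.0 and 175.0 CPM at E17.5 (log2 change 4.11, SE 0.3, edgeR adjusted p = 2e-06). The levels of the stages did not overlap for Rbfox1.
Syt16, a member of the synaptotagmin family, had 32 regions and rose from 8.08 ± 2.82 CPM (SD, n = 4 libraries) to 120.0 ± 19.3 CPM, with no overlap (log2 change 3.89, SE 0.29, edgeR adjusted p = 2.14e-06).

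Of the 20 genes with the most regions, 13 were called higher, 1 was called lower and 6 were not called. The background over all protein-coding genes tested was 32.3% higher and 25.7% lower. For genes with a stretch of 200 kb or more and no region, the shares were 47.2% and 22.1%. Galnt17, a member of the family of glycosyltransferases that start O-linked sugar chains, had 38 regions and rose by a log2 change of 2.91 (SE 0.31, edgeR adjusted p = 2.42e-05). Its highest E17.5 library, replicate 1 at 119.0 CPM, was apart from the other 3 at 60.4, 49.9 and 45.0 CPM, and the E11.5 libraries held 8.37 to 9.8 CPM. Zfhx3, a transcription factor with zinc fingers and homeodomains, had 38 regions and rose more mildly (log2 change 1.12, SE 0.19, edgeR adjusted p = 0.000586), from 152.0 to 209.0 CPM at E11.5 to 327.0 to 498.0 CPM at E17.5. Celf4, an RNA-binding protein of neurons, had 38 regions and rose (log2 change 2.56, SE 0.25, edgeR adjusted p = 1.13e-05).
Klf9, a transcription factor induced by thyroid hormone, had 26 regions and went from 1.84, 1.84, 2.55 and 1.76 CPM to 7.25, 14.5, 12.1 and 12.2 CPM (log2 change 2.53, SE 0.26, edgeR adjusted p = 1.93e-05).
Smaller rises were called for Sash1 (log2 change 0.65), Tox (0.84) and Klhl29 (1.06), with edgeR adjusted p of 0.00703, 0.00252 and 0.00019. The call of Wwc1, a regulator of the Hippo pathway with 29 regions, was weak, since its groups overlapped (log2 change 0.68, SE 0.26, edgeR adjusted p = 0.0435) and it was lost without any of the 4 E11.5 replicates or E17.5 replicate 2 (adjusted p 0.0578 to 0.133).

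Many regions near a gene did not go with a change of its RNA in several cases. Pik3c3, the lipid kinase Vps34 of autophagy, had 36 regions, none in its introns. It stood in a stretch, as defined above, of 2780 kb. Its RNA was 54.2, 44.6, 57.4 and 53.0 CPM at E11.5 and 45.7, 55.0, 55.2 and 46.9 CPM at E17.5, and the groups overlapped (log2 change -0.04, SE 0.16, edgeR adjusted p = 0.83). Tcf7l2, a Wnt pathway transcription factor strongly expressed in thalamus, had 27 regions and measured 1320.0, 899.0, 1090.0 and 884.0 CPM at E11.5 and 1360.0, 1260.0, 1160.0 and 1030.0 CPM at E17.5, also with overlap (log2 change 0.2, SE 0.18, edgeR adjusted p = 0.385). In the humanized embryos Tcf7l2 was called higher (log2 change 0.5, edgeR adjusted p = 0.00545), but the difference between genotypes did not pass the test given above. Zfp608, a zinc finger protein with 29 regions, and St6galnac3, a sialyltransferase with 27, had no call in wild type (log2 change -0.12 and 0.19) and were called higher in the humanized embryos (log2 change 0.29 and 0.35, edgeR adjusted p of 0.0327 and 0.0249). St6galnac3 was also called higher in wild type without E17.5 replicate 1 (log2 change 0.39, edgeR adjusted p = 0.0182).
Pdcd6ip, the ESCRT-associated protein ALIX, had 28 regions, none in its introns, and was the 1 gene of the 20 called lower. Its RNA was 105.0, 105.0, 114.0 and 110.0 CPM at E11.5 and 73.5, 71.1, 61.5 and 65.3 CPM at E17.5 (log2 change -0.67, SE 0.15, edgeR adjusted p = 0.00311).

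**Figure D4:**
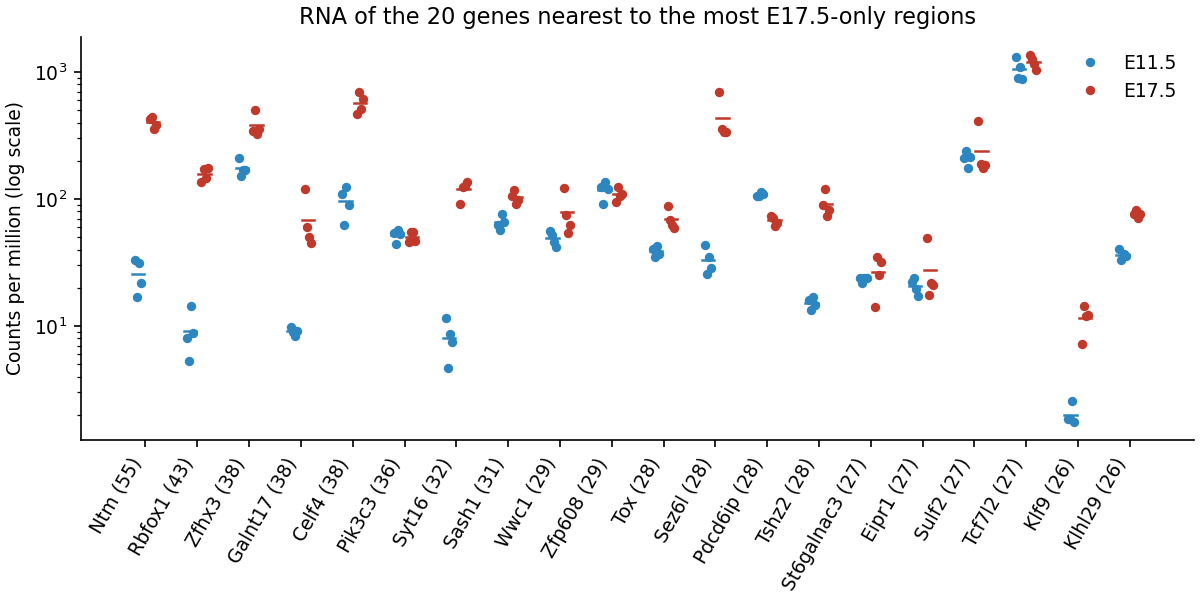
RNA level (CPM, log axis) of the 20 protein-coding genes nearest to the most E17.5-only regions, with the number of regions in brackets, 1 point per wild type library (4 at E11.5, 4 at E17.5) and a bar at the mean. Ntm, Rbfox1 and Syt16 are separated widely between stages, while Pik3c3 and Tcf7l2 overlap, and E17.5 replicate 1 is the high point of Sez6l, Sulf2 and Eipr1.

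Of 27 glutamate and GABA receptor genes, 23 were nearest to at least 1 region (85.2%, against 31% of all protein-coding genes), with 100 regions in all, and 27 of 27 were higher at E17.5 where the background was 32.3%, with a median log2 change of 4.11. Gria1, an AMPA receptor subunit, had 18 regions and went from 9.19, 5.31, 10 and 8.46 CPM to 180.0, 257.0, 208.0 and 221.0 CPM (log2 change 4.71, SE 0.25, edgeR adjusted p = 4.52e-07). Gabbr2, a GABA-B receptor subunit, had 17 regions, 16 of them in its introns, and a log2 change of 5.21 (SE 0.22, edgeR adjusted p = 2.87e-07). Having a region went with gene spacing. At stretches of 200 kb or more, 2333 protein-coding genes had a region and 757 had none, against 1218 and 10059 under 50 kb. The 31%, here and for the lists below, takes no account of spacing. These lists were compiled with earlier results of these data known, so their counts describe the genes and are not independent evidence.
Of 24 ion channel genes, 14 had a region, with 82 in all, and 23 were higher and none lower, also without E17.5 replicate 1 (median log2 change 2.45). Kcnma1, the large-conductance calcium-activated potassium channel, had 24 regions and went from 7.51, 3.89, 8.53 and 6.3 CPM to 108.0, 362.0, 255.0 and 280.0 CPM (log2 change 5.26, SE 0.42, edgeR adjusted p = 3.14e-06). Cacna1e, a voltage-gated calcium channel subunit, had 16 regions and a log2 change of 4.94 (SE 0.43, edgeR adjusted p = 5.56e-06). In both channel genes the lowest E17.5 library was replicate 1, and it still lay above every E11.5 library.
Of 25 genes of synaptic vesicles and the postsynaptic density, 17 had a region, with 94 in all, and 23 were higher and none lower (median log2 change 2.78). Syt1, the calcium sensor of vesicle release, had 15 regions (log2 change 3.42, SE 0.24, edgeR adjusted p = 1.72e-06).

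Thalamic identity genes had the most regions of the 12 lists, which were not matched for gene spacing. Of 20 such genes, 19 were nearest to at least 1 region (95.0%, against 31% of all protein-coding genes), with 175 regions in all, and 15 were higher and 3 lower (background 32.3% and 25.7%, median log2 change 2.12). Rora, a nuclear receptor of thalamic neurons, had 13 regions and went from 3.32, 1.52, 4.89 and 3.6 CPM to 37.7, 122.0, 85.7 and 99.3 CPM (log2 change 4.69, SE 0.44, edgeR adjusted p = 1.01e-05). The Rora library at 37.7 CPM was E17.5 replicate 1, and it too lay above all E11.5 libraries. Zic1, a zinc finger transcription factor of the dorsal brain, had 14 regions and a log2 change of 0.69 (SE 0.16, edgeR adjusted p = 0.00429). The genes called lower were Lhx2, Lef1 and Ror1, of which Lhx2 and Lef1 are transcription factors of the early diencephalon.
Hypothalamic genes had fewer regions: 12 of 20 had at least 1 (60%), with 37 in all, and 13 of 17 tested were higher and 1, Cartpt, was lower. Trh, the thyrotropin-releasing hormone, had 9 regions and went from 0.562, 0.841, 0.52 and 0.286 CPM to 17.9, 7.72, 7.3 and 7.24 CPM (log2 change 4.19, SE 0.43, edgeR adjusted p = 1.82e-05). Replicate 1 was the highest Trh library at E17.5, as it was the lowest for Rora. Pomc, the precursor of melanocortin peptides, had 4 regions and was called higher in wild type (log2 change 1.63, SE 0.33, edgeR adjusted p = 0.00192), while the humanized libraries gave a log2 change of 0.53 (adjusted p = 0.25).

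Of 20 astrocyte genes, 10 had at least 1 region (50%, against 31% of all protein-coding genes), with 78 in all, and 15 were higher and 2 lower (background 32.3% and 25.7%, median log2 change 2.72). Nfib, a nuclear factor I transcription factor needed for gliogenesis, had 18 regions, 17 of them in its introns, and went from 33.2, 20.7, 34.7 and 27.4 CPM to 124.0, 246.0, 157.0 and 161.0 CPM (log2 change 2.57, SE 0.26, edgeR adjusted p = 1.63e-05). Aqp4, the water channel of astrocyte endfeet, had 6 regions and was near 0 at E11.5, with 0.357, 0, 0.416 and 0.123 CPM, and 7.04, 29.4, 22.0 and 39.6 CPM at E17.5 (log2 change 6.76, SE 0.72, edgeR adjusted p = 2.18e-05). Nfia and Nfix were among the genes called higher, and Sox9 and Fgfr3, which progenitors also express, were the 2 called lower.
Of 20 genes of the oligodendrocyte lineage, 14 had a region (70%), with 39 in all, and 13 of 19 tested were higher and 3 lower, or 5 lower without E17.5 replicate 1. Lhfpl3, expressed by oligodendrocyte precursors, had 4 regions and a log2 change of 6.09 (SE 0.53, edgeR adjusted p = 5.57e-06). The call of Tns3 (log2 change -0.55, edgeR adjusted p = 0.0233) was lost without E11.5 replicate 2 or 4 or E17.5 replicate 3 or 4, and that of Mbp, myelin basic protein (log2 change 0.74, adjusted p = 0.0209), without E11.5 replicate 1, 3 or 4 (adjusted p 0.0507 to 0.0877 for both genes).

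Progenitor and cell cycle genes fell, where the background over all protein-coding genes tested was 32.3% higher and 25.7% lower. Of 20 neural progenitor genes, 19 were lower and none higher (median log2 change -3.24), while 10 (50%, against 31% of all protein-coding genes) had at least 1 E17.5-only region, with 44 in all beside 44 both-stage and 27 E11.5-only regions. Sox2, a transcription factor of neural stem cells, had 15 E17.5-only, 12 both-stage and 4 E11.5-only regions, and went from 237.0, 250.0, 238.0 and 238.0 CPM to 198.0, 136.0, 134.0 and 145.0 CPM (log2 change -0.65, SE 0.17, edgeR adjusted p = 0.00885). Sox1, of the same family, had 10 E17.5-only regions, 6 of them under H3K27me3 in both E11.5 lists, and a log2 change of -1.65 (SE 0.21, edgeR adjusted p = 8.78e-05). Sox9 had 17 E17.5-only regions, none in its introns, and a log2 change of -1.4 (SE 0.28, edgeR adjusted p = 0.00172).
Of 20 cell cycle genes, 19 were lower and none higher (median log2 change -3.77), and 6 (30%, near the 31% of all protein-coding genes) had E17.5-only regions, with 25 in all. Of these, 16 were nearest to Cdk1, the mitotic kinase, which went from 135.0, 150.0, 128.0 and 139.0 CPM to 16.0, 10.4, 11.4 and 10.1 CPM (log2 change -3.52, SE 0.21, edgeR adjusted p = 6.49e-07). These 16 regions lay 68.5 to 346.0 kb from the Cdk1 start, and none was in its introns.

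RNA of other cells in the dissected tissue moved with stage as well. The summed level of the 20 neural progenitor genes ranged from 5260 to 5580 CPM in the E11.5 libraries and from 633 to 917 CPM in the E17.5 libraries, and that of the 20 astrocyte genes from 1350 to 1430 CPM and from 2110 to 2490 CPM. Genes of choroid plexus, meninges and blood summed to 3210 to 5800 CPM at E11.5 and 936 to 1630 CPM at E17.5, with 5 of 19 higher and 10 lower. Endothelial genes summed to 495 to 635 and 393 to 627 CPM, with 3 of 15 higher and 2 lower, and microglial genes to 74.5 to 98.4 and 72.2 to 127.0 CPM, with 2 of 14 higher and 1 lower. The background for these calls was 32.3% higher and 25.7% lower. None of the 12 lists had a matched gene at 0 in every wild type library. The part of these cell mixtures in the H3K27ac and RNA differences was not tested.
Cdh5, an endothelial cadherin, had 16 regions and no call (log2 change -0.61, SE 0.26, edgeR adjusted p = 0.0663), but it was called lower without E17.5 replicate 1 (log2 change -0.95, edgeR adjusted p = 3.27e-05) and in the humanized libraries (log2 change -1.19, edgeR adjusted p = 1.17e-06). Of the 15 endothelial genes, 8 (53.3%) had regions, with 35 in all, as did 9 of the 19 genes of choroid plexus, meninges and blood (47.4%), with 33, and 3 of the 14 microglial genes (21.4%), with 10, where 31% of all protein-coding genes had one. Without E17.5 replicate 1, 6 endothelial, 3 microglial and 13 choroid plexus, meninges and blood genes were lower, against 37.2% of all protein-coding genes.

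The shares of genes called higher lay further apart by H3K27me3 at the gene start than by H3K27me3 at the region, a difference that was not tested. Starts in both and in neither E11.5 list belong to separate genes. A gene with several regions can stand in more than 1 region class, so the 2 spreads are not alike in kind. Among genes with at least 1 E17.5-only region, the 1592 tested whose start (1-kb window) lay under H3K27me3 in both E11.5 lists were higher in 59.0% of cases and lower in 18.3%, with a median log2 change of 1.24. The 3690 tested with a start in neither E11.5 list were higher in 32.4% and lower in 24.5%, with a median of 0.1. Where the start was in both E11.5 lists and no E17.5 list, 139 of 170 tested genes (81.8%) were higher and 6 (3.53%) lower, with a median of 1.79. All protein-coding genes with that change at the start, whether near an E17.5-only region or not, were higher in 73.3% of 292. All protein-coding genes with a start in both E11.5 lists, whatever the E17.5 lists held, were higher in 53.4% of 2892 and lower in 20.7%. Without E17.5 replicate 1, 61.5% of genes with a region and a start in both lists were higher and 23.4% lower. For genes with a region, the shares were then 39.5% and 35.2% for a start in neither, and 84.2% and 5.85% where the mark was gone from the E17.5 lists. Most starts kept the mark in the lists, and the 1200 tested genes with a region in all 5 lists were higher in 52.8% and lower in 22.2%. Over all 2206 tested protein-coding genes with a start in all 5 lists, the shares were 48.0% and 24.6%.

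In the humanized embryos, with chromosome 13 left out and H3K27me3 taken from the humanized lists, 365 tested genes with a region had a start in both E11.5 lists and no E17.5 list, and 78.1% were higher and 11.2% lower. By H3K27me3 at the region instead, genes nearest to the 879 regions in both E11.5 lists were higher in 50.4% of 585 cases, those nearest to the 113 regions no longer in an E17.5 list in 67.7% of 99, and those nearest to the 19556 regions in no list in 41.1% of 5204, or 55.1%, 73.7% and 46.7% without wild type E17.5 replicate 1. Celf4 and Klhl29 were the named genes whose starts were in both E11.5 lists and in no E17.5 list, and both were higher. Klhl29, of the kelch-like family, measured 40.1, 33.0, 36.8 and 35.8 CPM at E11.5 and 76.5, 81.4, 70.4 and 76.0 CPM at E17.5, with no overlap. Of the 10 genes with the most regions and a start under H3K27me3 at E11.5, 9 were higher and Sulf2 was not called (log2 change 0.19, edgeR adjusted p = 0.583). Of all 2892 protein-coding genes tested with such a start, 53.4% were higher, as were 58.0% of genes with 10 or more regions.

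**Figure D5:**
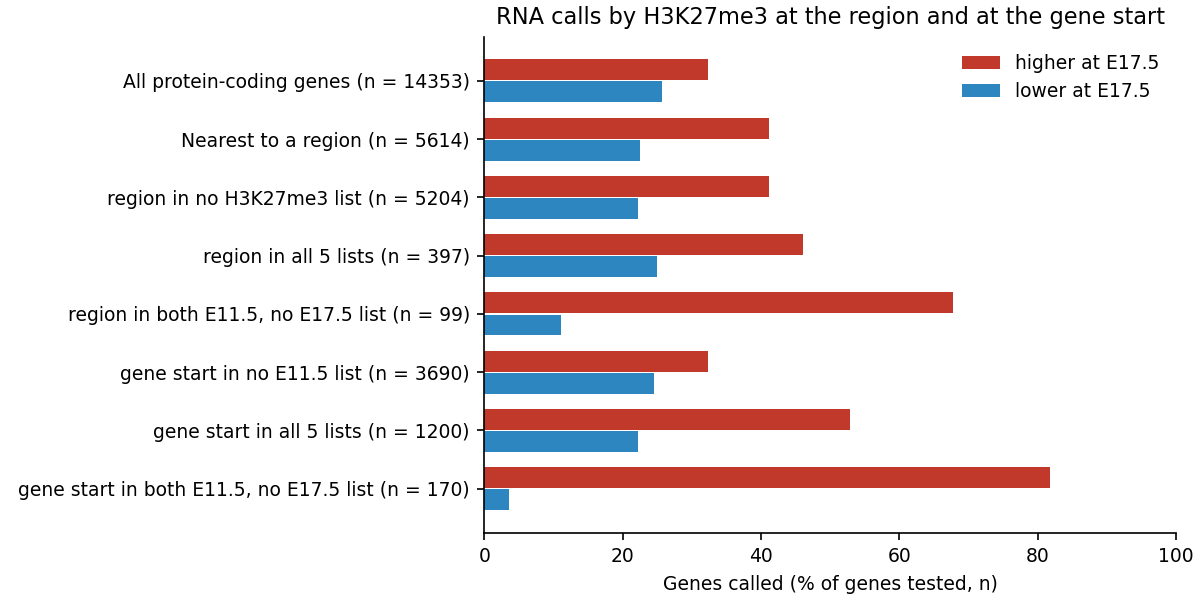
Percent of tested protein-coding genes (x axis, n in the labels) called higher or lower at E17.5 in wild type by edgeR, for all genes, genes nearest to an E17.5-only region, and those genes by H3K27me3 at the region or within 1 kb at the gene start. The share of higher genes is 81.8% where the start was in both E11.5 lists and no E17.5 list, against 32.4% where it was in no E11.5 list.

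Genes nearest to CTCF-bound members moved little more than the others. Genes with at least 1 region that had CTCF in all 3 lists were higher in 44.2% of 1711 cases and lower in 21.0%, and genes with at least 1 region without CTCF were higher in 41.6% of 5002 and lower in 22.5%. Without E17.5 replicate 1 the shares were 49.4% and 30.2% with CTCF, and 47.5% and 30.9% without. These gene sets overlap, and the difference was not tested.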

How the data were processed

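The authors deposited peak lists for each ChIP-seq library and tables of read counts per gene for each RNA library, and 52 of the 76 samples had a file used here. In the peak lists, fold enrichment over input and a −log10 q-value are the authors' values from MACS2, called per library and not on pooled replicates. The submitters' processing notes name Bowtie2 2.4.2, MACS2 2.2.7.1, STAR 2.7.9a and deepTools 3.5.1, and the settings used to call H3K27me3 are not given in the sources used here. The deposited counts are raw counts from STAR, with 48.1 to 58.4% of reads assigned to no gene, which were left out. The methods state GENCODE release 31, and release 39 for mm39 was used here for gene starts and names. The methods and sample labels name one H3K27ac antibody for both stages, stated to bind H2BK5ac as well, while the protocol text in the labels gives another catalogue number, also for both stages. The C57BL/6 line is stated to carry copy-number variants on chromosome 19.

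Peaks were merged at 1 bp overlap, and 8 merged regions on scaffolds were left out. The nearest gene was that with the closest protein-coding start to the centre of a region. RNA was tested with edgeR 4.0.16 (quasi-likelihood, TMM, filterByExpr, R 4.3.3) on the 4 against 4 libraries of each genotype, with Benjamini-Hochberg adjustment over all genes tested and calls at an adjusted p under 0.05. DESeq2 1.42.0 was an alternative. Scripts were tested on simulated data. Regions and shares were counted with Python 3.11.15, pandas 2.3.3 and pysam 0.24.0. The region set and gene lists were chosen with earlier results of these data known. Named genes were the 20 with the most regions, the 10 with the most regions among genes with a start under H3K27me3 in both E11.5 lists, and up to 4 per gene list with 3 or more regions. Named regions were the 10 strongest by the lowest enrichment, 8 with the strongest CTCF and 8 with the most H3K27me3 at E11.5, and sequences were shown for a selection of them outside exons. The methods call the libraries biological replicates, each from 1 litter. Peak lists give no depth, so shares of regions carry no counting interval. Some items that the rule names are not reported here.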

Additional observations from a re-analysis of the deposited data

Results flagged for a closer look

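Among 61 named genes, 120 groups of 4 libraries were searched for a library whose gap to its nearest neighbour took up most of the range of its group, and 13 were found, where chance gives about 1 in 20 groups. Of these, 8 were wild type E17.5 replicate 1, with 698.0 CPM for Sez6l, 49.5 for Eipr1, 415.0 for Sulf2, 76.7 for Mbp, 101.0 for Cdh5, 50.1 for Cldn5, 17.9 for Trh and 78.0 for Sox1, each the highest of its group. The other E17.5 libraries found were replicate 2 for Zfhx3, the highest at 498.0 CPM, and replicate 3 for Kl, the lowest at 1.27 CPM. At E11.5 they were replicate 2 for St6galnac3, the lowest at 21.8 CPM, and for Sox2, the highest at 250.0 CPM, and replicate 3 for Klf9, the highest at 2.55 CPM. No cause was tested.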

How the results depend on the processing

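Of 71 recomputed summary values, 56 stayed within the replicate spread or within 1.5 times the count and 15 moved. With the same number of peaks from each H3K27ac list there were 7372 regions, with H3K27me3 at 5.98%, CTCF at 17.9% and all matching humanized lists at 94.7%, and 1488 nearest genes (45.7%) were higher and 637 (19.6%) lower. With H3K27ac peaks of −log10 q of at least 5, CTCF was at 15.4% and the humanized lists at 81.2%. H3K27me3 at E11.5 was at 5.84% in at least 1 list, 2.75% with 50% of the region covered, 2.1% with peaks of −log10 q of at least 5, and 4.12 to 5.69% leaving out 1 replicate. CTCF was at 18.5% in at least 1 list and 12.3 to 13.5% without 1 replicate. Leaving out 1 list gave 23177 to 29797 regions and humanized shares of 58.6 to 81.2%. Leaving out 1 RNA library gave 2120 to 2649 higher and 1056 to 1773 lower nearest genes, the highest of both without E17.5 replicate 1. With every gene start within 100 kb, 2583 genes were lower.

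The replicate numbers did not pair the RNA libraries (correlations of 0.0632, -0.771, 0.634 and 0.24), and with the replicate block 2158 nearest genes were higher and 1186 lower. DESeq2 gave 2563 and 1253. Of 60 single genes, 12 changed call or sign somewhere. The sign of the log2 change turned for Eipr1 (-0.17 in humanized, -0.05 to 0.6 without 1 library), Sulf2 (-0.2 and -0.22 to 0.33 likewise), Zfp608 (0.29 in humanized), Pik3c3 (0.01 with DESeq2 size factors) and Ptprc (-0.09 to 0.45 without 1 library, below 0 without replicate 2 of either stage, at -0.05 and -0.09). For Eipr1 and Sulf2 the lowest value came without E17.5 replicate 1. Lost or gained calls of Wwc1, Tns3, Mbp, Cdh5, Pomc, Tcf7l2, Zfp608 and St6galnac3 are given beside the genes, and with the replicate block Wwc1 and Tns3 were not called (adjusted p 0.0508 and 0.0533). The causes were not tested. Peak calls depend on list length, and bulk tissue does not separate cells.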
